A study of Homo sapiens with 42 samples.

Results

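RPL3L carrying the G27D change was added to AC16 cells that were already low in RPL3, and the transcripts that differed were sought. AC16 is a human line made by fusing ventricular heart cells with transformed fibroblasts. The genes compared were all those with a mean of at least 1 TPM (transcripts per 1000000 transcripts) over the 3 G27D and the 3 shRPL3 libraries, which left 14311 of the 60606 genes in the table, 11559 of them protein-coding. Whole-cell polyA RNA of 30 libraries in 10 groups of 3 was sequenced, with a separate set of 12 nuclear libraries. The G27D cells carried a hairpin against RPL3 that doxycycline switches on, together with a lentiviral construct for RPL3L G27D, EBFP2 and rtTA3. The shRPL3 cells, the controls, carried the RPL3 hairpin without an RPL3L construct. RPL3L-WT and P291L cells, set beside them for some genes and lists, carried the same hairpin with wild-type RPL3L or RPL3L P291L. shScramble cells carried a scrambled hairpin. All groups received doxycycline at 1 ug/ml. The hairpin lines were selected with hygromycin as mixed populations and those with an RPL3L construct were also sorted for its blue fluorescence, so G27D and shRPL3 differ by a transduction and a sort as well as by RPL3L. The labels do not say that replicates came from separate cultures, and p-values then measure only the spread between these samples.

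RPL3 is a protein of the large (60S) ribosomal subunit that reaches towards the peptidyl transferase centre. RPL3L is its paralog, made mainly in heart and skeletal muscle, where it takes the place of RPL3 in the ribosome. Changes in RPL3L have been linked to childhood cardiomyopathy. The messenger RNAs measured here report on the state of the cells and not on ribosomes themselves.

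The libraries set limits on what can be read. TPM keep no sequencing depth, so the depth of the whole-cell libraries is unknown. On the levels of 509 pseudogenes, G27D 3 fell with 5 libraries of other groups into a second kind that the labels do not name, and the other 24 whole-cell libraries, shRPL3 1 to 3 among them, formed the first. The median size of the log2 difference between G27D 1 and G27D 2 was 0.089 over all genes tested, against 0.26 and 0.27 between G27D 3 and these libraries and 0.11 to 0.13 among the shRPL3 libraries. The fit with limma on log2(TPM + 1) therefore held a term for the library kind. Main counts and list counts against shRPL3 are also given without G27D 3. Single genes are given without it only in places, and all 114 followed here stayed on their side of the threshold in that fit. RPL3L-WT 1 and 2 were of the second kind too, so the comparisons of G27D with RPL3L-WT rest on that term. In the first kind alone they set G27D 1 and 2 against 1 RPL3L-WT library, assumed to vary like the other groups, and 1.42% of all genes were then higher and 3.67% lower in G27D. The labelled type is cardiomyocyte-like, but 0 of 13 cardiomyocyte markers reached a mean of 1 TPM, and their sum was 0.90 to 2.78 TPM in G27D and 0.28 to 1.15 TPM in shRPL3. All 9 fibroblast and mesenchymal markers were measured, at 5165 to 5572 TPM in sum in G27D and 6406 to 6742 TPM in shRPL3, with 2 members higher and 5 lower. Of 5 epithelial markers the keratin genes KRT8, KRT18 and KRT19 were measured, at 299 to 356 TPM in sum in G27D and 221 to 240 TPM in shRPL3, with KRT8 and KRT18 higher and EPCAM and CDH1 under 1 TPM. Of 5 leukocyte markers CD68 alone was measured and was higher, and PTPRC and CD3E were under 1 TPM, as were all skeletal muscle and endothelial markers. The part of any such shift in the results was not tested. In bulk samples such as these, fewer cells of a type and less RNA per cell cannot be told apart.

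RPL3L was at 4189, 4188 and 3627 TPM in G27D 1 to 3, against 0.029, 0.035 and 121 TPM in shRPL3 1 to 3. The third shRPL3 library stood apart from the first 2. It also held EBFP2 at 434 TPM and rtTA3 at 428 TPM, which amounted to 2.93 and 2.91% of the mean of G27D 1 and 2, and its RPL3L to 2.90%. EBFP2 was at 14543, 15061 and 19655 TPM in G27D, and at 0 TPM in shRPL3 1 and 2. Because shRPL3 3 carries this signal of a construct its label does not give, main counts are also given without it. RPL3L differed by 9.74 on the log2 scale (SE 1.08, limma adjusted p = 1.86e-06), by 12.03 without shRPL3 3 and by 8.59 without shRPL3 2. RPL3L lies on chromosome 16 and RPL3 on chromosome 22.

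RPL3 was at 723, 727 and 449 TPM in G27D and at 539, 500 and 570 TPM in shRPL3, so G27D 1 and 2 were above all 3 shRPL3 libraries and G27D 3 below them. With the library kind in the model RPL3 was 0.42 higher on the log2 scale (SE 0.037, limma adjusted p = 1.24e-08), and 0.44 higher without G27D 3 (adjusted p = 4.75e-08). With no kind term the difference was 0.21 and did not pass the threshold (adjusted p = 0.457). Both groups stayed far below shScramble, at 1570.0 ± 38.8 TPM (SD, n = 3). G27D did not differ past the threshold from RPL3L-WT in RPL3 (0.07, adjusted p = 0.293). The construct that carries the hairpin was measured through 4 sequences, which were not tested. TetR averaged 957 ± 104 TPM in G27D and 450 ± 18.6 TPM in shRPL3, and IRES 561 ± 108 and 274 ± 13.1 TPM (SD, n = 3 each), with no overlap between the groups. HygR was at 650, 682 and 353 TPM in G27D and at 295, 283 and 348 TPM in shRPL3, so G27D 3 was level with shRPL3 3. The hairpin sequence itself was at 20.8, 9.63 and 6.00 TPM in G27D and at 6.81, 5.63 and 10.4 TPM in shRPL3, and the groups overlapped. RPL3 reads can be shared with its processed pseudogenes.

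**Figure D1:**
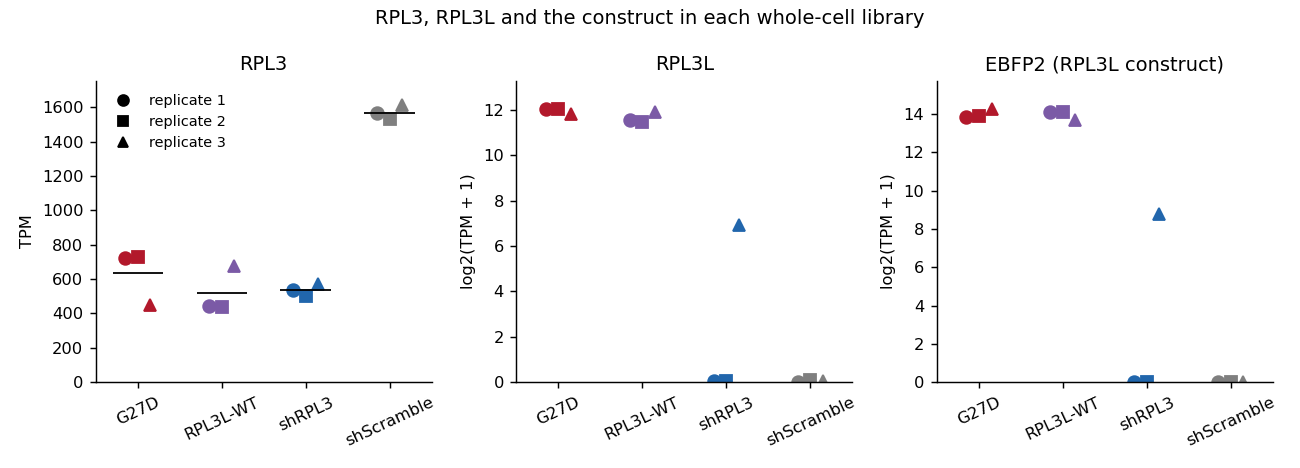
RPL3 in TPM (left), and RPL3L and EBFP2 as log2(TPM + 1) (middle and right), for each library of G27D, RPL3L-WT, shRPL3 and shScramble. Marker shapes are replicate numbers and horizontal lines in the left panel are group means. G27D 1 and 2 lie above shRPL3 in RPL3 and G27D 3 below it, and shRPL3 3 shows RPL3L and EBFP2 far above shRPL3 1 and 2.

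In all, 723 genes were higher in G27D than in shRPL3, 5.05% of those tested, and 2982 were lower, 20.8% (limma with Benjamini-Hochberg adjustment over 14311 genes, threshold 0.05). The fit without G27D 3 called 587 higher (4.1%) and 2844 lower (19.9%); 554 (3.87%) and 2621 (18.3%) passed in both fits, and 0 changed sign. Irrespective of any test, all 3 G27D libraries lay above all 3 shRPL3 libraries in 5.96% of genes and below them in 31.9%. Most changes were small: of the 554, 229 had a log2 change of at least 0.5 and 49 of at least 1, and of the 2621, 402 and 29 reached these sizes. Leaving out shRPL3 3 gave 670 higher and 2495 lower. The scale of TPM shifted between the groups. The median log2 change of all genes tested was -0.10, or 0.01 after the TPM of each library were scaled by median ratios, and the counts then became 1422 higher (9.94%) and 1266 lower (8.85%). Of the 723 genes 722 passed again as higher and of the 2982 genes 1266 passed again as lower, so many of the small decreases below depend on that scale. The counts after this scaling stand beside those of each gene group, and 5.05% higher and 20.8% lower are the shares of all genes to set against a group with TPM as deposited. Lists were described by counts and medians, and no list was tested as a set. Apart from RPL3 and the genes chosen after their values were seen, genes below were named only where the groups did not overlap. Lack of overlap in those genes repeats this condition and is no further result.

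The regions upstream of 4 leading genes are shown because they hold letters that recur in the lipid and heat shock lists. They are the 250 bases before the start of each gene on its own strand, from RefSeq (GRCh38.p14), with capitals for CCAAT (or ATTGG, the same letters on the other strand), a motif bound by NF-Y, in HMGCS1, SCD and INSIG1, and for a heat shock element, here the letters GAA, TTC and GAA with any 2 bases between neighbouring units, or its reverse complement, in HSPA6.
HMGCS1, chr5:43313413-43313662, minus strand: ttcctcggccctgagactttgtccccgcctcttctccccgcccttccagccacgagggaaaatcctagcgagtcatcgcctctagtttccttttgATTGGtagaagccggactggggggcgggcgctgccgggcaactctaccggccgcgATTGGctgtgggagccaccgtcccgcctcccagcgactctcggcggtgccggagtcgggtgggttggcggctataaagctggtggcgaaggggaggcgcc
SCD, chr10:100346983-100347232, plus strand: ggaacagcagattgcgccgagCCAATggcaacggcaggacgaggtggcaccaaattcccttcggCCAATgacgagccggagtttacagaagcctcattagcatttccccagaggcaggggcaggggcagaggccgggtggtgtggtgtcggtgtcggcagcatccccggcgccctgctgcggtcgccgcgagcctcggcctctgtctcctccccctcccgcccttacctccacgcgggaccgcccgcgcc
INSIG1, chr7:155297628-155297877, plus strand: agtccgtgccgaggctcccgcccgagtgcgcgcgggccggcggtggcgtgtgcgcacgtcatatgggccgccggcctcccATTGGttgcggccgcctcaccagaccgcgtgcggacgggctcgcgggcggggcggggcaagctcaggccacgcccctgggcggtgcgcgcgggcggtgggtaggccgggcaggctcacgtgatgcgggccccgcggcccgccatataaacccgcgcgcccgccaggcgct
HSPA6, chr1:161524290-161524539, plus strand: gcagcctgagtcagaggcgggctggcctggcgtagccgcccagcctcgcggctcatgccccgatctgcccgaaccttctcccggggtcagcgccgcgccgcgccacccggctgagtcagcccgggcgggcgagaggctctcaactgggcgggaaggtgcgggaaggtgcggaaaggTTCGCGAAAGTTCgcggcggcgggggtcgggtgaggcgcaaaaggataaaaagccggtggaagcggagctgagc
Searched on both strands in such windows, CCAAT was in 16 of 24 windows of cholesterol synthesis genes (66.7%), 48.4% of those of fatty acid synthesis genes and 40.9% of those of sterol sensing genes, against 33.3% of the 14763 windows of genes tested. The heat shock element was in 8 of 37 windows of heat shock genes (21.6%), against 0.305% of the windows of genes tested. The sterol element letters CACCCCAC were in 0 of the 24 cholesterol synthesis windows, 1 of 22 sterol sensing windows (4.55%) and 2 of 31 fatty acid synthesis windows (6.45%), against 2.24% of the windows of genes tested. Other leading genes lacked the marked letters: both FADS2 windows and a second HMGCS1 window held 0 CCAAT, and the windows of HSPA1A and HSPA1B held 0 heat shock elements of this form. A match describes letters in a window and says nothing of binding.

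Genes of sterol and fatty acid synthesis were lower in G27D, and of the lists described cholesterol synthesis had the largest share of members lower. Cells make cholesterol from acetyl-CoA through the mevalonate pathway, and SREBP transcription factors raise its enzymes when sterols run low. Of the 22 genes tested, 20 were already lower in shRPL3 than in shScramble (24.1% of all genes were), and 19 of the 22 were lower again in G27D. HMGCS1, which makes HMG-CoA, was at 36.6, 36.4 and 36.5 TPM in G27D and at 85.4, 91.4 and 93.2 TPM in shRPL3. The G27D libraries of both kinds lay together, and all were below every shRPL3 library, as the naming condition required. The log2 change was -1.22 (SE 0.060, limma adjusted p = 3.71e-13), and -1.28 without G27D 3. shScramble held 465 TPM, and RPL3L-WT and P291L held 59.1 and 57.6 TPM on average. DHCR7, which catalyses the last step to cholesterol, was at 8.90, 9.61 and 9.11 TPM in G27D and at 20.4, 22.1 and 22.6 TPM in shRPL3 (-1.15 without G27D 3, adjusted p = 7.27e-08). MSMO1 and MVD, also enzymes of the pathway, fell by 0.85 and 0.81 on the log2 scale.

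Of the 22 cholesterol synthesis genes tested, 19 fell and 0 rose, with a median log2 change of -0.55 against -0.10 over all genes. The counts were 19 and 0 without G27D 3, 19 and 0 without shRPL3 3, and 18 and 0 after median-ratio scaling. The members not past the threshold were the enzyme genes GGPS1, PMVK and TM7SF2. The direct comparison of G27D with RPL3L-WT, which carry the same hairpin and an RPL3L construct, gave 17 of 22 lower and 0 higher (median -0.47), where 6.03% of all genes were lower, and 14 lower and 0 higher in the first kind alone. RPL3L-WT against shRPL3 gave 6 lower and 1 higher (20.5 and 6.18% of all genes; 2 and 1 in the first kind, where 10.2 and 4.19% of all genes were, and 2 and 2 after median-ratio scaling, where 8.4 and 11.3% were), and P291L against shRPL3 13 lower and 0 higher (27.7 and 8.08%); these comparisons share the shRPL3 libraries. HMGCS1 was 0.73 lower in G27D than in RPL3L-WT (adjusted p = 9.75e-09) and DHCR7 0.78 lower (adjusted p = 9.42e-05).

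Among the 17 sterol sensing and uptake genes, 11 fell and 0 rose (median -0.24), unchanged in number without G27D 3 and without shRPL3 3, and 7 and 0 after median-ratio scaling. INSIG1, which holds SREBP in the endoplasmic reticulum when sterols are plentiful, was at 44.8, 42.7 and 38.0 TPM in G27D and at 93.9, 98.3 and 98.7 TPM in shRPL3. As the naming condition required, no G27D library reached the shRPL3 range (-1.09, SE 0.055, adjusted p = 7.64e-13). SREBF2, which codes for the SREBP of sterol synthesis, was at 29.6, 30.5 and 25.1 TPM in G27D and at 36.9, 39.6 and 44.8 TPM in shRPL3 (-0.34, adjusted p = 0.00237). INSIG2 passed (-0.47, adjusted p = 0.0224) but not without G27D 2, without shRPL3 2 or after median-ratio scaling.

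SCD, the desaturase that makes oleate, was the gene with the largest decrease among those named. It was at 33.3, 36.3 and 37.5 TPM in G27D and at 121, 125 and 129 TPM in shRPL3. The groups did not overlap, as the naming condition required, and shScramble was higher still at 707 TPM. The log2 change was -1.73 (SE 0.069, adjusted p = 8.20e-15), and G27D was also 0.77 lower than RPL3L-WT (adjusted p = 3.84e-08). FADS2, the delta-6 desaturase of polyunsaturated fatty acids, was at 24.9, 28.5 and 26.8 TPM in G27D and at 62.3, 55.3 and 64.0 TPM in shRPL3 (-1.04, adjusted p = 4.71e-08). ME1, a source of NADPH for lipid synthesis, fell by 0.53 on the log2 scale (adjusted p = 4.73e-06). Of 22 fatty acid synthesis and desaturation genes tested, 15 fell and 0 rose (median -0.31), 15 and 0 without G27D 3, 11 and 0 without shRPL3 3, and 9 and 1 after median-ratio scaling. PNPLA3, a lipase gene in this list, passed (-0.51, adjusted p = 0.0473) but lost its call in 4 leave-outs and after scaling.

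**Figure D2:**
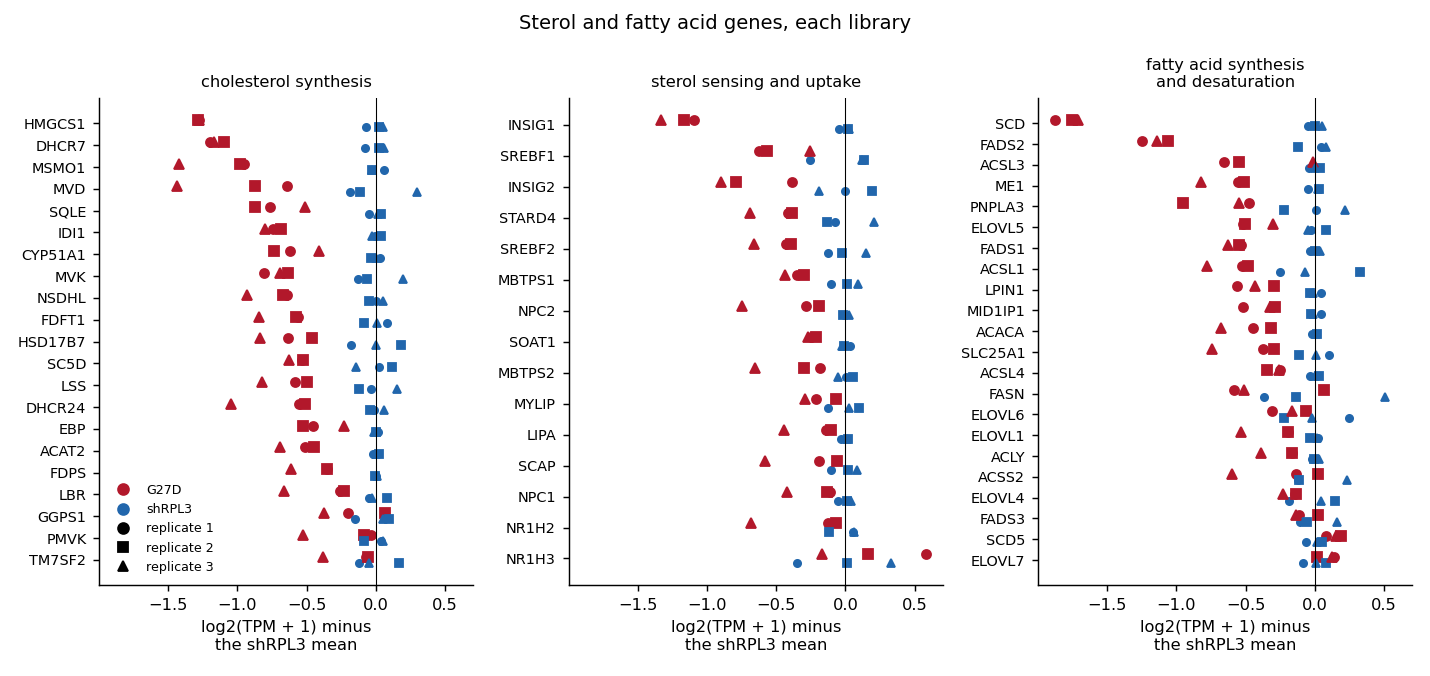
log2(TPM + 1) of each G27D and shRPL3 library minus the shRPL3 mean, for tested genes of 3 lists, ordered by the fitted change with the most negative at the top of each panel. Red points are G27D, blue points shRPL3, and shapes are replicate numbers. HMGCS1, INSIG1 and SCD show all 3 G27D libraries clear of shRPL3, while G27D 3 often lies to the left of G27D 1 and 2.

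Genes that carry, store and release fatty acids did not follow. Of 16 tested, 3 rose and 2 fell (median -0.05; 5 and 1, median 0.06, after median-ratio scaling; 2 and 1 without shRPL3 3). G0S2, an inhibitor of the lipase that opens fat droplets, was at 22.4, 20.4 and 20.0 TPM in G27D and at 9.50, 8.19 and 7.71 TPM in shRPL3 (1.14, SE 0.095, adjusted p = 5.49e-09). As the naming condition required, all 3 G27D libraries exceeded all shRPL3 libraries. FABP3, the heart fatty acid binding protein gene, was at 3.41, 3.19 and 3.46 TPM in G27D and at 1.52, 1.04 and 1.75 TPM in shRPL3 (0.91, adjusted p = 0.000126), against 36.8 TPM in shScramble. CPT2, of mitochondrial fatty acid import, fell (-0.38, adjusted p = 0.00207).

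Inducible cytosolic chaperone genes were among the leading increases. Heat shock factor raises them when unfolded proteins accumulate, and their products refold or hold such proteins. HSPA6, an HSP70 gene that is nearly silent in unstressed cells, was at 5.05, 6.52 and 4.41 TPM in G27D and at 0.38, 0.72 and 0.76 TPM in shRPL3. Every G27D library was several-fold above every shRPL3 library (log2 change 2.04, SE 0.15, adjusted p = 7.89e-10; 2.06 without G27D 3). HSPA1A was at 191, 196 and 208 TPM in G27D and at 67.2, 66.0 and 75.5 TPM in shRPL3 (1.44, SE 0.087, adjusted p = 2.09e-11), and HSPA1B at 312, 312 and 209 TPM and at 126, 114 and 141 TPM (1.27, SE 0.093, adjusted p = 7.89e-10). HSPA1A and HSPA1B are near-identical copies, so the split of reads between them is uncertain. shScramble held 6.27 TPM of HSPA6, 202 of HSPA1A and 426 of HSPA1B. Between G27D and shScramble, HSPA6 and HSPA1A did not differ past the threshold (-0.12 and -0.08, adjusted p = 0.543 and 0.438). HSPA1B was lower in G27D than in shScramble (-0.46, adjusted p = 0.000172). CRYAB, a small heat shock protein of muscle, rose (0.93, adjusted p = 0.00584), though not without G27D 2.

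The list of heat shock genes as a whole was split. Of 27 tested, 7 rose and 7 fell (median -0.01), with 7 and 6 without G27D 3, 7 and 6 without shRPL3 3, and 11 and 4 (median 0.10) after median-ratio scaling. HSPD1, the mitochondrial chaperonin HSP60, was the member that fell most, at 616, 601 and 746 TPM in G27D and 838, 851 and 766 TPM in shRPL3 (-0.42, adjusted p = 5.96e-06). In RPL3L-WT against shRPL3 14 of the 27 rose and 4 fell (6.18 and 20.5% of all genes). In the direct comparison with RPL3L-WT, 12 were lower in G27D and 1 was higher (median -0.20; 6.03 and 4.51% of all genes), and 9 and 0 in the first kind alone. HSPA1A was 0.62 lower (adjusted p = 3.04e-05) and HSPA1B 0.64 lower in G27D than in RPL3L-WT (adjusted p = 4.63e-05), where RPL3L-WT held 319 and 382 TPM. The HSPA1B call was lost in the first kind alone (-0.53, adjusted p = 0.0528) and with no kind term (-0.47, adjusted p = 0.126). HSPA6 did not differ past the threshold (-0.27, adjusted p = 0.279).

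**Figure D3:**
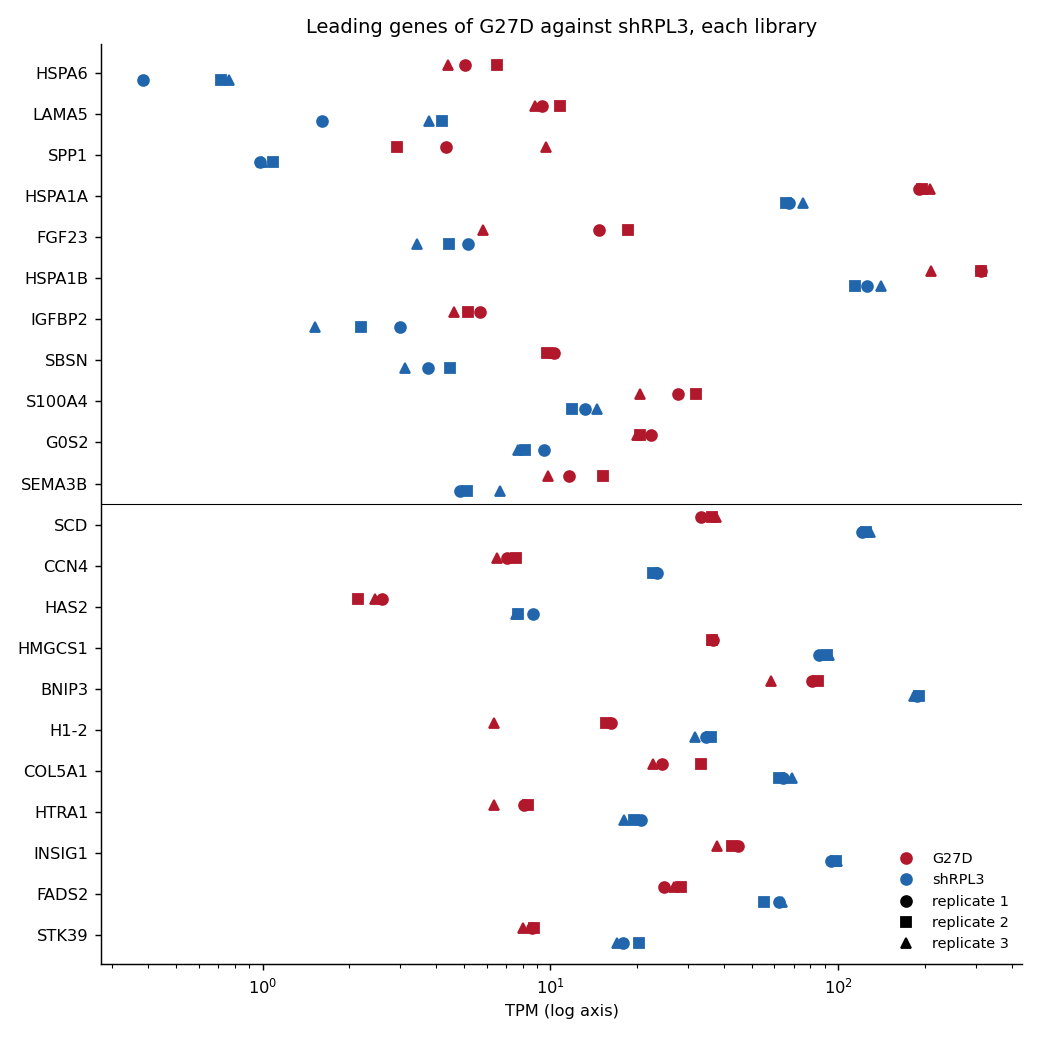
TPM on a log axis in each G27D (red) and shRPL3 (blue) library, with shapes for replicate numbers, for genes with the largest increases (above the line) and decreases (below the line) that also passed without G27D 3 and whose groups did not overlap; RPL3L is not shown. HSPA6 and SCD stand at the head of each block, and FGF23 shows G27D 3 close to the shRPL3 libraries.

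Genes outside the lipid and heat shock lists were also among the leading increases. LAMA5, a basement membrane laminin chain, was at 9.37, 10.8 and 8.83 TPM in G27D and at 1.61, 4.21 and 3.78 TPM in shRPL3 (1.57, adjusted p = 9.11e-06). SPP1, which codes for osteopontin, was at 4.34, 2.94 and 9.66 TPM in G27D and at 0.98, 1.09 and 1.00 TPM in shRPL3 (1.45, adjusted p = 2.04e-05). The naming condition kept the groups apart in both genes, and in SPP1 the G27D libraries varied widely. S100A4, a calcium-binding protein gene and one of the mesenchymal markers, was at 27.7, 32.0 and 20.5 TPM in G27D and at 13.2, 11.9 and 14.5 TPM in shRPL3 (1.16, adjusted p = 1.67e-08). The insulin-like growth factor binding protein gene IGFBP2 (1.19, adjusted p = 6.16e-05), the suprabasin gene SBSN (1.18, adjusted p = 2.03e-07) and the semaphorin gene SEMA3B (1.13, adjusted p = 3.22e-06) rose too. FGF23, a phosphate-regulating hormone gene, was at 14.8, 18.6 and 5.81 TPM in G27D and at 5.18, 4.44 and 3.44 TPM in shRPL3. Its call (1.29, adjusted p = 0.0265) was lost without G27D 1, G27D 2, shRPL3 2 or shRPL3 3.

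Many extracellular matrix genes were lower. Of 38 collagen and matrix genes, 20 fell and 2 rose (median -0.24), 20 and 2 without G27D 3, 16 and 2 without shRPL3 3, and 16 and 4 after median-ratio scaling. COL5A1, a fibrillar collagen chain, was at 24.4, 33.4 and 22.8 TPM in G27D and at 64.4, 62.4 and 68.8 TPM in shRPL3 (-1.14, adjusted p = 5.57e-09). POSTN, which codes for periostin, was at 0.49, 0.55 and 0.73 TPM in G27D and at 3.26, 3.08 and 2.85 TPM in shRPL3 (-1.35, adjusted p = 6.33e-08). Lack of overlap was a condition for naming both genes, and shScramble held 0.32 TPM of POSTN. COL11A1 fell (-0.80, adjusted p = 0.000332). COL1A1, the main chain of type I collagen, was at 988, 1105 and 972 TPM in G27D and at 1231, 1204 and 1414 TPM in shRPL3 (-0.27, adjusted p = 0.0276), a call lost without G27D 1, without shRPL3 3 and after median-ratio scaling. COL1A1 and FN1 are also among the mesenchymal markers whose sum was lower in G27D, and the part of those cells or that state in the matrix genes was not tested. Of the leading decreases, CCN4, a matricellular target of WNT signalling, was at 7.06, 7.61 and 6.52 TPM in G27D and at 23.4, 22.7 and 23.3 TPM in shRPL3 (-1.43, adjusted p = 1.25e-10). HAS2, the hyaluronan synthase, was at 2.59, 2.14 and 2.46 TPM in G27D and at 8.68, 7.71 and 7.60 TPM in shRPL3 (-1.38, adjusted p = 4.91e-09). HTRA1, a secreted serine protease gene, fell by 1.13 on the log2 scale (adjusted p = 2.24e-09). CCN4 and HTRA1 did not differ past the threshold between G27D and RPL3L-WT (adjusted p = 0.946 and 0.988), while HAS2 was 0.47 lower in G27D (adjusted p = 0.00803).

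Proteases of the matrix and their inhibitors moved both ways, with 5 of 20 higher and 5 lower (median 0.01; 5 and 5 without G27D 3, 5 and 3 without shRPL3 3, 8 and 3 after median-ratio scaling). The plasminogen activator genes PLAT (0.85, adjusted p = 1.95e-09) and PLAU (0.60, adjusted p = 6.54e-06) and the inhibitor gene TIMP3 (0.70, adjusted p = 4.88e-09) rose. PLAT was at 35.8, 34.8 and 27.5 TPM in G27D and at 17.7, 18.7 and 21.0 TPM in shRPL3. MMP2, a gelatinase, was at 205, 201 and 227 TPM in G27D and at 349, 331 and 342 TPM in shRPL3 (-0.69, adjusted p = 1.19e-11). Lack of overlap between the groups was a condition for naming these genes. Against RPL3L-WT, 10 of the 20 were lower in G27D and 0 higher (6.03 and 4.51% of all genes). PLAT was among those lower (-0.44, adjusted p = 7.95e-05), though not past the threshold with no kind term (-0.32, adjusted p = 0.124). The median of the 20 was -0.16, both with the kind term and in the first kind alone.

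Of 21 genes of activin and TGF-beta ligands, regulators and targets, 10 fell and 2 rose (median -0.14; 10 and 1 without G27D 3, 8 and 2 without shRPL3 3, 7 and 3 after median-ratio scaling). TGFBI, a secreted protein induced by TGF-beta, was at 181, 181 and 144 TPM in G27D and at 314, 329.6 and 315 TPM in shRPL3 (-0.78, SE 0.035, adjusted p = 5.08e-14). INHBA, the activin A subunit, was at 7.06, 6.93 and 7.58 TPM in G27D and at 12.3, 10.9 and 12.1 TPM in shRPL3 (-0.66, adjusted p = 4.59e-06), and FST, the activin antagonist, at 18.1, 16.7 and 12.8 TPM and at 28.3, 31.1 and 28.97 TPM (-0.67, adjusted p = 1.71e-06). Ligand and antagonist were both lower in each G27D library, as the naming condition required. BMP4, a ligand of the bone morphogenetic branch, was at 9.92, 10.1 and 10.0 TPM in G27D and at 4.37, 4.45 and 5.01 TPM in shRPL3 (0.97, adjusted p = 6.45e-08). INHBA and FST were also lower in G27D than in RPL3L-WT (-0.65, adjusted p = 1.23e-05, and -0.61, adjusted p = 1.64e-05, the second lost with no kind term), and BMP4 was not past the threshold there (-0.11, adjusted p = 0.509).

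Smooth muscle and cardiac stress genes were mixed, with 4 of 21 higher and 8 lower (median -0.02; 4 and 9 without G27D 3, 4 and 8 without shRPL3 3, 7 and 6 with a median of 0.09 after median-ratio scaling). SYNPO2, an actin-bundling protein of the Z-disc, was at 2.20, 2.12 and 2.18 TPM in G27D and at 0.27, 0.22 and 0.27 TPM in shRPL3. All 3 G27D libraries agreed closely and stood apart from RPL3L-WT, P291L and shScramble, which averaged 0.45, 0.39 and 0.33 TPM. The log2 change was 1.31 against shRPL3 (SE 0.13, adjusted p = 9.70e-08), 1.15 against RPL3L-WT (adjusted p = 1.26e-06) and 1.16 against P291L (adjusted p = 1.42e-06). CNN1, smooth muscle calponin, was at 29.1, 27.2 and 39.3 TPM in G27D and at 16.6, 16.1 and 19.5 TPM in shRPL3 (0.65, adjusted p = 2.28e-06). ANKRD1, a stress-induced cardiac ankyrin repeat protein gene, was at 3.78, 3.15 and 3.11 TPM in G27D and at 1.74, 1.72 and 2.14 TPM in shRPL3 (0.65, adjusted p = 0.000590), and 0.70 lower in G27D than in RPL3L-WT (adjusted p = 0.000647). Of the 21, 14 were lower and 1, SYNPO2, higher in G27D than in RPL3L-WT (6.03 and 4.51% of all genes). The median of the 21 was -0.22 there, and -0.25 in the first kind alone. ACTG2 passed as lower (-0.66, adjusted p = 0.0385) but not in 4 leave-outs or after scaling.

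Glycolysis and hypoxia genes were lower in the majority. Under low oxygen, hypoxia-inducible factors raise genes for glycolysis, pH control and mitophagy. Of 39 tested, 25 fell and 2 rose (median -0.29), with 24 and 2 without G27D 3, 23 and 2 without shRPL3 3, and 15 and 3 after median-ratio scaling. Against the same shRPL3 libraries 19 fell and 4 rose in RPL3L-WT (20.5 and 6.18% of all genes). In P291L 24 fell and 3 rose (27.7 and 8.08%), so the decrease was not particular to G27D. BNIP3, a mitophagy receptor, was at 80.7, 85.1 and 58.2 TPM in G27D and at 188, 190.2 and 182 TPM in shRPL3 (-1.16, SE 0.038, adjusted p = 2.72e-16). CA9, a carbonic anhydrase and a marker of hypoxia, was at 1.19, 0.92 and 0.25 TPM in G27D and at 3.88, 4.04 and 4.67 TPM in shRPL3 (-1.38, adjusted p = 0.000194). PDK1, a kinase that inhibits pyruvate dehydrogenase, and PFKL, the liver phosphofructokinase, fell by 0.81 and 0.76 on the log2 scale (adjusted p = 0.000500 and 9.78e-07). Lack of overlap between groups was a condition for naming these 4 genes. EPAS1, which codes for HIF-2 alpha, went the other way, at 34.9, 35.7 and 39.4 TPM in G27D and 23.2, 26.2 and 26.1 TPM in shRPL3 (0.53, adjusted p = 0.000558).

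NF-kB and cytokine genes included increases and no decrease. Of 16 NF-kB and cytokine genes tested, 6 rose and 0 fell (median 0.26), with 6 and 0 without G27D 3, 6 and 0 without shRPL3 3, and 7 and 0 after median-ratio scaling. IL1B, interleukin 1 beta, was at 22.3, 22.9 and 16.3 TPM in G27D and at 10.4, 10.6 and 10.6 TPM in shRPL3 (0.98, SE 0.086, adjusted p = 1.20e-08). BIRC3, an inhibitor of apoptosis induced by NF-kB, was at 10.0, 11.2 and 8.55 TPM in G27D and at 4.69, 5.16 and 4.78 TPM in shRPL3 (0.90, adjusted p = 5.89e-06). Both genes were named on condition that the groups did not overlap. The adhesion molecule gene ICAM1 rose (0.54, adjusted p = 1.32e-06), and so did IL6 (0.50, adjusted p = 0.00971), whose call was lost without G27D 1. Of 29 interferon response genes, 6 rose and 1 fell (median 0.13), 6 and 1 without G27D 3, 8 and 1 without shRPL3 3, and 10 and 1 after median-ratio scaling. PSMB9, an immunoproteasome subunit, was at 13.02, 12.7 and 10.0 TPM in G27D and at 8.52, 4.98 and 7.30 TPM in shRPL3 (0.80, adjusted p = 0.000441), and DDX58, the RNA sensor RIG-I, at 4.98, 4.78 and 5.33 TPM and at 2.57, 2.89 and 2.41 TPM (0.70, adjusted p = 2.68e-05). IFITM2 and IFITM3, antiviral membrane proteins with similar sequences, rose by 0.65 and 0.42 on the log2 scale, and IFITM3 was also 0.47 higher than in RPL3L-WT (adjusted p = 8.99e-06). CD68, the macrophage marker, was at 82.7, 85.7 and 159.9 TPM in G27D and at 62.6, 62.2 and 67.3 TPM in shRPL3 (0.39, adjusted p = 8.40e-05, not past the threshold with no kind term), with PTPRC at 0.15 to 0.66 TPM in G27D and 0.018 to 0.31 TPM in shRPL3.

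Endoplasmic reticulum and amino acid stress genes were lower or level. Of 26 endoplasmic reticulum stress genes 14 fell and 0 rose (median -0.18), 15 and 0 without G27D 3, 14 and 0 without shRPL3 3, and 7 and 0 after median-ratio scaling. XBP1, a transcription factor of the unfolded protein response, was at 62.2, 63.0 and 50.9 TPM in G27D and at 93.7, 100.1 and 93.0 TPM in shRPL3 (-0.59, SE 0.040, adjusted p = 1.36e-10). P4HB, DNAJB9 and HSP90B1, which fold secreted proteins, fell by 0.51, 0.47 and 0.40 on the log2 scale. These 4 genes were named on condition that their groups did not overlap. Of 36 integrated stress response genes 14 fell and 3 rose (median -0.13), 13 and 2 without G27D 3, 14 and 2 without shRPL3 3, and 9 and 5 after median-ratio scaling. PSAT1, an enzyme of serine synthesis, was at 28.6, 29.7 and 19.6 TPM in G27D and at 43.2, 43.3 and 42.2 TPM in shRPL3 (-0.56, adjusted p = 1.16e-09), and ALDH1L2, SLC7A11 and SLC1A4 fell by 0.53, 0.46 and 0.45. ATF4, the transcription factor of this response, was at 932, 921 and 859 TPM in G27D and at 1038, 1020.0 and 1066 TPM in shRPL3 (-0.17, adjusted p = 8.54e-05), a call lost after median-ratio scaling. ATF4 was 0.56 higher in G27D than in RPL3L-WT (adjusted p = 2.97e-12). Of the 36 genes, though, 12 were lower and 6 higher there (median -0.06), where 6.03 and 4.51% of all genes were. PSAT1, ALDH1L2, SLC7A11 and SLC1A4 were lower in G27D than in RPL3L-WT (-0.50, -0.35, -0.42 and -0.51, adjusted p = 1.46e-08, 0.0082, 0.0093 and 1.33e-05). Of 23 NRF2 antioxidant genes 10 fell and 1 rose (median -0.14), 9 and 2 without G27D 3, 9 and 1 without shRPL3 3, and 6 and 5 after median-ratio scaling. NQO1, a quinone reductase, was at 185, 179 and 146 TPM in G27D and at 282, 263 and 262 TPM in shRPL3 (-0.52, adjusted p = 1.24e-08). PIR fell by 0.70 and GCLM by 0.61 on the log2 scale.

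**Figure D4:**
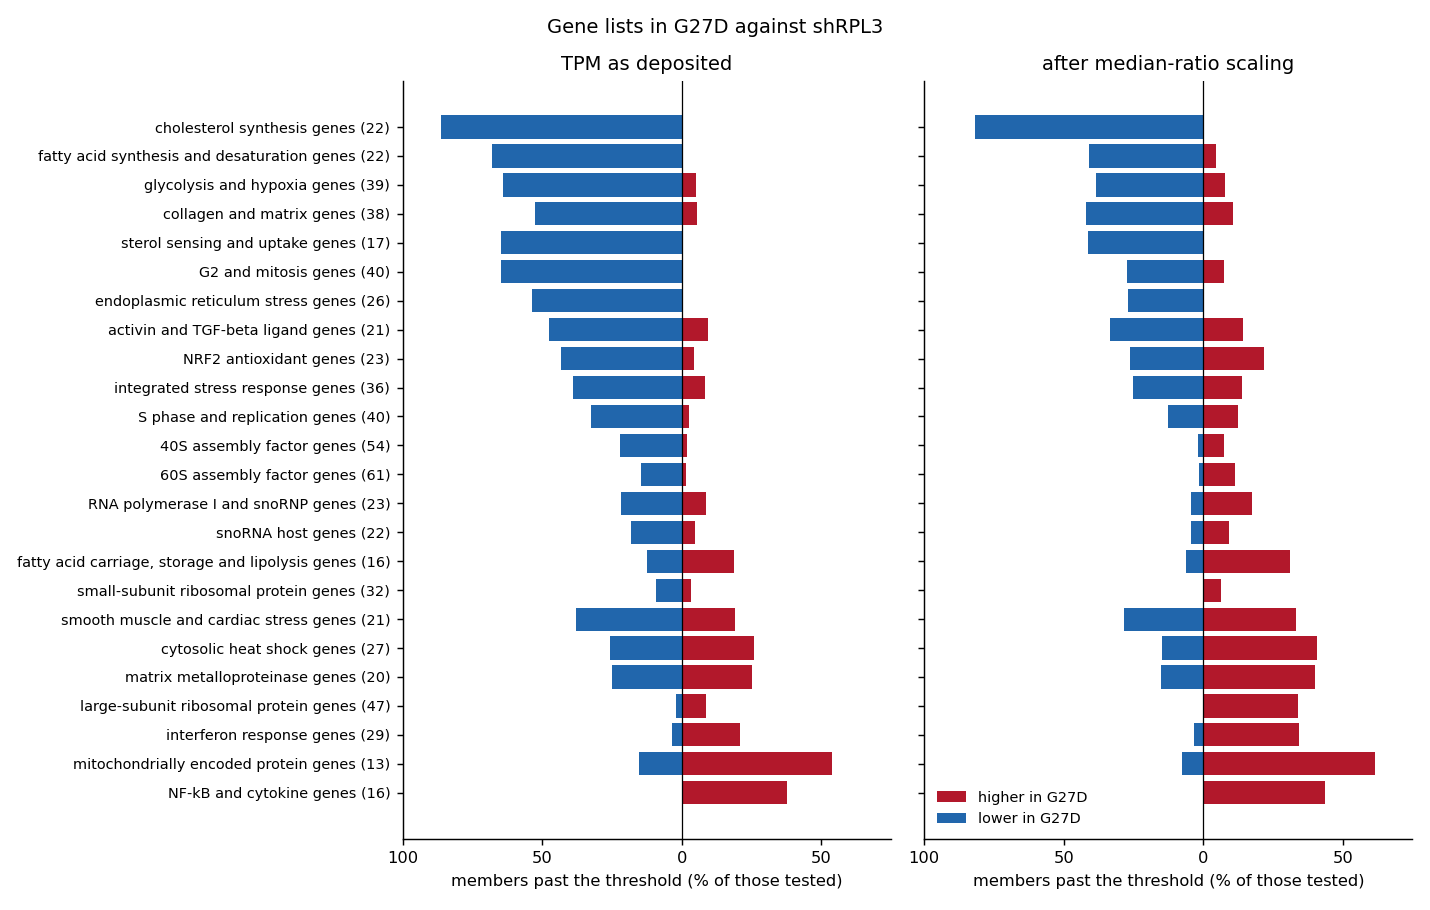
Share of the tested members of each gene list that were higher (red, to the right) or lower (blue, to the left) in G27D than in shRPL3 past the threshold, with TPM as deposited (left) and after median-ratio scaling (right). The number tested stands after each name. Cholesterol synthesis genes stay at the lower end with both scales. In the lists of ribosome assembly genes most members are past the threshold in neither direction. Those past it turn from mostly lower to mostly higher.

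Of the cell cycle lists, that of G2 and mitosis was mostly lower, by small amounts. Of 40 G2 and mitosis genes, 26 fell and 0 rose (median -0.21), with 26 and 0 without G27D 3, 25 and 1 without shRPL3 3, and 11 and 3 after median-ratio scaling. Against the same shRPL3 libraries 15 fell and 0 rose in RPL3L-WT (20.5 and 6.18% of all genes), and 28 and 0 in P291L (27.7 and 8.08%). CDK1, the kinase that starts mitosis, was at 136, 142 and 110.4 TPM in G27D and at 178, 184 and 168 TPM in shRPL3 (-0.37, adjusted p = 5.02e-05). MAD2L1, BUB1 and CENPA, of the spindle checkpoint and centromere, fell by 0.39, 0.35 and 0.33 on the log2 scale. MKI67, the proliferation marker Ki-67, was at 40.6, 42.6 and 47.2 TPM in G27D and at 49.0, 50.6 and 55.1 TPM in shRPL3 (-0.28, adjusted p = 0.00495), a call lost after median-ratio scaling. The groups did not overlap in MKI67, and for CDK1 this was a condition of naming. S phase and replication genes had a median close to that of all genes: of 40, 13 fell and 1 rose (median -0.10), 12 and 0 without G27D 3, 10 and 1 without shRPL3 3, and 5 and 5 after median-ratio scaling. CCNE2, cyclin E2, was at 19.2, 17.1 and 17.1 TPM in G27D and at 28.8, 31.2 and 26.1 TPM in shRPL3 (-0.59, adjusted p = 3.38e-05). The linker histone gene H1-2 was at 16.2, 15.6 and 6.35 TPM in G27D and at 34.8, 36.1 and 31.8 TPM in shRPL3 (-1.16, adjusted p = 1.07e-07), and the kinase gene STK39 fell by 1.03 (adjusted p = 6.93e-10). Histone transcripts mostly lack a polyA tail, and polyA selection touches their level.

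Ribosomal protein genes hardly moved between G27D and shRPL3. Of 47 large-subunit genes 4 rose and 1 fell (median 0.01; 3 and 1 without G27D 3, 3 and 3 without shRPL3 3), and of 32 small-subunit genes 1 rose and 3 fell (median -0.04; 1 and 2 without G27D 3, 1 and 3 without shRPL3 3). After median-ratio scaling these became 16 and 0 (median 0.12) and 2 and 0 (median 0.08). RPL11, which also binds MDM2, was at 3041, 2993 and 4844 TPM in G27D and at 2343, 2244 and 2115 TPM in shRPL3 (0.43, SE 0.037, adjusted p = 1.24e-08). G27D 3 stood far above G27D 1 and 2 here, and the change was 0.44 without it. RPL17 fell by 0.13 (adjusted p = 0.00828) and RPS2 rose by 0.25 (adjusted p = 0.000636), and RPL17 lost its call without G27D 2 and after median-ratio scaling. The large-subunit genes took 10.5, 10.3 and 8.68% of all TPM in G27D and 10.5, 10.2 and 10.2% in shRPL3.

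RPL3L-WT was lower than G27D here. Against shRPL3, with the same kind term, 29 of the 47 large-subunit genes were lower and 2 higher in RPL3L-WT (20.5 and 6.18% of all genes). Their median was -0.14, and -0.19 in the first kind alone. After median-ratio scaling 1 was lower and 4 higher, where 8.4 and 11.3% of all genes were. In the direct comparison 25 of 47 large-subunit genes were higher in G27D than in RPL3L-WT and 0 lower (median 0.15), and 17 of 32 small-subunit genes were higher and 0 lower (median 0.15), where 4.51% of all genes were higher. In the first kind alone 14 and 11 were higher and 0 lower (medians 0.19 and 0.20, with 1.42% of all genes higher), and after median-ratio scaling 18 and 10 higher and 0 lower. With no kind term 2 and 1 were higher, though with larger medians (0.27 and 0.30), so these counts depend on how the library kinds are handled. Of 22 snoRNA host genes, 9 were higher and 0 lower in G27D than in RPL3L-WT (median 0.20), and 11 and 0 in the first kind alone. Against shRPL3, 4 of these 22 fell and 1 rose in G27D (median -0.05). The counts were 4 and 1 without G27D 3, 3 and 1 without shRPL3 3, and 1 and 2 after median-ratio scaling (median 0.06). In RPL3L-WT 12 of the 22 fell and 0 rose (20.5 and 6.18% of all genes). SNHG1, whose introns carry snoRNAs, was at 618, 619 and 536 TPM in G27D and at 785, 787 and 753 TPM in shRPL3 (-0.33, SE 0.030, adjusted p = 2.44e-08). RPL3L-WT was lower again at 445 TPM and shScramble at 248 TPM, and G27D was 0.35 above RPL3L-WT (adjusted p = 2.46e-08).

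Factors that build the subunits fell in shares below or near the 20.8% of all genes. Of 61 60S assembly factor genes 9 fell and 1 rose (median -0.08), 11 and 1 without G27D 3 and 12 and 1 without shRPL3 3, but 1 and 7 (median 0.03) after median-ratio scaling. Of 54 40S assembly factor genes 12 fell and 1 rose (median -0.09), 10 and 0 without G27D 3 and 11 and 0 without shRPL3 3, but 1 and 4 (median 0.03) after scaling. Of 23 RNA polymerase I and snoRNP genes 5 fell and 2 rose (median -0.08), 5 and 2 without G27D 3 and 6 and 1 without shRPL3 3, but 1 and 4 (median 0.03) after scaling. Most members of these 3 groups were called in neither direction, and the direction of the called ones turned with the scale. The shares of all genes moved too, to 9.94% higher and 8.85% lower after scaling. NMD3, the export adaptor of the 60S subunit, was at 60.4, 58.5 and 46.2 TPM in G27D and at 84.5, 78.4 and 76.3 TPM in shRPL3 (-0.43, adjusted p = 3.28e-05; -0.31 after scaling, adjusted p = 0.00116). DHX37, a helicase of 40S assembly, fell by 0.32 on the log2 scale (adjusted p = 0.00282), and RRN3, an initiation factor of RNA polymerase I, by 0.23 (adjusted p = 0.00371), the second not past the threshold after scaling (adjusted p = 0.0955).

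Transcripts of the 13 protein genes of the mitochondrial genome took 6.49, 6.43 and 12.2% of all TPM in G27D. In shRPL3 they took 6.26, 6.51 and 6.15%, so G27D 3 held far more than the other 5 libraries. Of the 13 protein genes 7 rose and 2 fell (median 0.13), 6 and 2 without G27D 3, 6 and 2 without shRPL3 3 and 8 and 1 after median-ratio scaling, and with no kind term 1 rose and 0 fell. MT-ND1, a subunit of complex I, was at 2339, 2371 and 5098 TPM in G27D and at 1580.0, 1642 and 1672 TPM in shRPL3 (0.54, adjusted p = 7.63e-08; 0.53 without G27D 3). All 3 G27D libraries were above shRPL3, as the naming condition required. MT-ND6, encoded on the other strand, was at 92.1, 114 and 157 TPM in G27D and at 145, 191 and 168 TPM in shRPL3 (-0.69, adjusted p = 0.00170), with G27D 3 inside the shRPL3 range.

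TXNIP and IL24, both higher in shRPL3 than in shScramble, did not pass the threshold between G27D and shRPL3. TXNIP, which limits glucose uptake, was at 128, 127 and 91.7 TPM in G27D and at 125, 127 and 113 TPM in shRPL3 (0.03, adjusted p = 0.815), against 1.06 TPM in shScramble. The cytokine gene IL24 was at 29.5, 23.3 and 24.1 TPM in G27D and at 23.5, 18.6 and 22.5 TPM in shRPL3 (0.32, adjusted p = 0.111), and it passed after median-ratio scaling (0.44, adjusted p = 0.0446). In both the groups overlapped. In the direct comparison G27D was above RPL3L-WT by 0.42 for TXNIP (adjusted p = 0.000768) and by 1.20 for IL24 (adjusted p = 4.69e-06), where RPL3L-WT held 79.1 and 10.2 TPM. Over all genes, 646 were higher (4.51%) and 863 lower (6.03%) in G27D than in RPL3L-WT (203 and 525 in the first kind alone; 232, or 1.62%, and 251, or 1.75%, with no kind term), and 882 (6.16%) and 806 (5.63%) than in P291L.

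Nuclear RNA, sequenced without polyA selection or removal of rRNA, reports on the making of ribosomes. The 45S precursor holds 18S, 5.8S and 28S rRNA with spacers (5′ ETS, ITS1, ITS2, 3′ ETS) that are cut away as subunits mature. The region counts summed to 8374730 and 8094182 in the 2 nuclear G27D libraries, and to 10533692 and 11734569 in the 2 shRPL3 libraries. The 5′ ETS took 3.504 (95% Wilson interval 3.49 to 3.52) and 3.45% (3.44 to 3.46) of the counts in G27D, and 2.67 (2.66 to 2.68) and 2.58% (2.57 to 2.59) in shRPL3. ITS1 took 2.00 and 2.26% in G27D and 1.87 and 1.78% in shRPL3, and ITS2 2.64 and 2.79% in G27D and 2.26 and 2.28% in shRPL3. Both G27D libraries were above both shRPL3 libraries in each spacer, the 3′ ETS included (0.0804 and 0.0927% in G27D, 0.0739 and 0.0666% in shRPL3). As ratios within a library, 5′ ETS over 18S was 0.114 and 0.118 in G27D, 0.0611 and 0.0632 in RPL3L-WT, and 0.0863 and 0.0836 in shRPL3. ITS2 over 28S was 0.0435 and 0.0452 in G27D, 0.0300 and 0.0306 in RPL3L-WT, and 0.0366 and 0.0368 in shRPL3. G27D thus lay above shRPL3 and RPL3L-WT below it. 28S over 18S was 1.98 and 2.11 in G27D, 2.47 and 2.46 in RPL3L-WT, and 2.00 and 2.01 in shRPL3, with G27D and shRPL3 overlapping. With 2 libraries a group an exact two-sided permutation test cannot go below p = 0.333, so no test was made, and intervals cover counting error only.

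**Figure D5:**
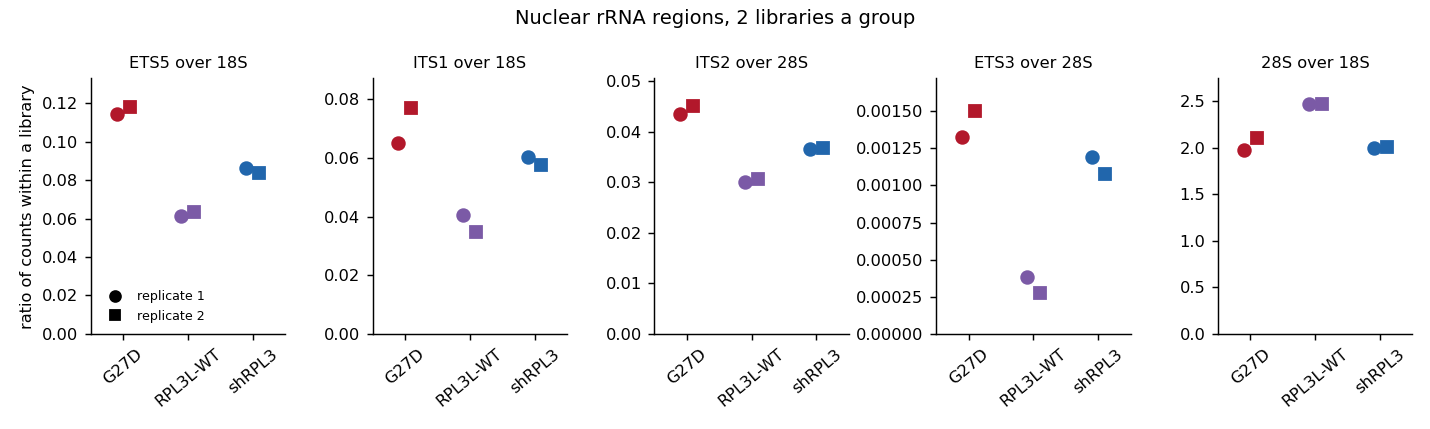
Ratio of rRNA region counts within each nuclear library of G27D, RPL3L-WT and shRPL3, for 5 pairs of regions (ETS5 and ETS3 are the 5′ and 3′ ETS); shapes are replicate numbers. G27D lies highest and RPL3L-WT lowest in the 4 spacer ratios, and RPL3L-WT is highest in 28S over 18S.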

How the data were processed

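The authors deposited TPM per gene for 30 whole-cell polyA libraries and counts per region of a 45S pre-rRNA reference for 12 nuclear libraries. Tools listed in the submitters' processing notes are bcl2fastq 2.19, bedtools, Bowtie and kallisto; the index, annotation and build behind the values were not given in the sources used here. Of 60612 TPM entries, 6 were construct sequences, shown but not tested. All columns matched a labelled library.

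Tests ran on log2(TPM + 1), a pseudocount of 1, so fold changes of genes with low TPM are understated. limma 3.58.1 (R 4.3.3) fitted all 30 libraries, 10 groups and a library kind term (trend and robust, two-sided, Benjamini-Hochberg over 14311 genes, threshold 0.05). The term was added because earlier results of these data showed the kinds, split at the widest gap (15.4, next 1.52) along the first principal component of 509 pseudogenes. Alternatives were no kind term, each library left out, a replicate block, pseudocounts of 0.1 and 5, a mean of at least 5 TPM, no filter, median-ratio scaling, and 2 subsets of libraries; those for the comparisons with RPL3L-WT were chosen after seeing the data.

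The text names RPL3 and RPL3L, then the 12 largest increases (RPL3L among them) and 12 largest decreases with an adjusted p under 0.05 in both the full fit and that without G27D 3, no overlap between groups, a group mean of 5 TPM or more, and no pseudogene or small RNA, then up to 4 members of each list by the same conditions at 1 TPM. Key members (SREBF2, HSPD1, COL1A1, EPAS1, ATF4, MKI67, MT-ND6, TXNIP, IL24), the 3 cholesterol genes not past the threshold and the markers were chosen after their values were seen. A few items that met these conditions are not reported here. Members and lists were chosen with earlier results of these data known. Plots used Python 3.11.15 with pandas 2.3.3 and matplotlib 3.10.9.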

Additional observations from a re-analysis of the deposited data

How the results depend on the processing

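The number of genes higher in G27D, 723, became 355 with no kind term, 1422 with median-ratio scaling and 84 with the 6 libraries of G27D and shRPL3 only. The number lower, 2982, became 2186, 1266 and 354 there. With those 6 libraries 3908 genes had an unadjusted p under 0.05. Leaving out 1 library at a time gave 529 to 670 higher and 2006 to 2844 lower, with the fewest higher without shRPL3 2 and the fewest lower without G27D 1. RPL3 was 0.21 higher with no kind term and with the 6 libraries, below the threshold both times. TXNIP, not past the threshold in any fit, was at -0.0886 with no kind term and with the 6 libraries, and between -0.0204 (without shRPL3 3) and 0.0677 when 1 library was left out. The cause of these shifts was not tested. The fit of the 6 libraries held no kind term and also left fewer samples to estimate the spread. Deviations of same-numbered libraries correlated at -0.0212, -0.0272 and 0.00817 (r), and those of other pairs at -0.0213 to 0.0415. These deviations remain after group and kind were fitted, and cannot show whether same-numbered libraries were handled together. A fit with the replicate block gave 693 higher and 2953 lower. It left all 114 single genes followed here on their side of the threshold. With the 6 libraries 61 of these 114 lost their call and 1 changed sign. After median-ratio scaling 20 lost their call and 1 gained it, and with no kind term 11 lost it and 1 changed sign. Without G27D 3 and shRPL3 3 together, chosen after seeing the data, 561 were higher and 2331 lower. Depth is unknown for TPM, so small changes of genes near 1 TPM cannot be weighed against counting error.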

Other observations

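Other groups of genes were counted in G27D against shRPL3 with the same fit and are given as values. Of 20 aminoacyl-tRNA synthetase genes, which load tRNAs, 13 fell and 0 rose (median log2 change -0.14), and 6 fell and 1 rose after median-ratio scaling. Of 37 lysosome and autophagy genes 16 fell and 0 rose (median -0.15), but 4 fell and 3 rose after that scaling. Of the 8 genes of the cytosolic chaperonin CCT 5 fell and 0 rose, and 1 fell and 1 rose after scaling. Of 26 p53 pathway genes 5 rose and 3 fell (median -0.02), and 7 rose and 1 fell after scaling. Of 56 mitochondrial ribosomal protein genes 6 rose and 7 fell (median 0.00), and 16 rose and 0 fell after scaling. In the direct comparison with RPL3L-WT 18 of these 56 were higher in G27D and 0 lower (4.51 and 6.03% of all genes). Without G27D 3 the counts with TPM as deposited were 13 lower and 0 higher for the synthetases, 16 and 0 for lysosome genes, 5 and 0 for CCT, 3 and 5 for p53 and 5 and 5 for the mitochondrial ribosome.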
